A study of Mus musculus with 6 samples.

Results

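The 500 strongest autosomal H3K9me3 regions of quadriceps femoris were chosen by their raw counts: every region on chromosomes 1 to 19 was ranked by the sum of its counts over the 6 libraries, and the 500 highest were kept, with ties in table order. They are 500 of 198643 autosomal regions and of 202553 regions in all. Their count level is therefore what selected them and is given as a description, while the genotype played no part in the choice. H3K9me3 was profiled by CUT&Tag, in which an antibody tethers a transposase that cuts and tags the DNA next to the marked nucleosomes, in frozen muscle, from 3 libraries labelled Prr14-WT, numbered 3, 4 and 8, and 3 labelled Prr14-KO, numbered 4, 5 and 7. The labels give the genotype, the tissue and the antibody, and no strain, age, sex, litter or batch. They do not say which part of Prr14 is deleted, nor that each library is a different mouse, so the p-values measure only the spread between these libraries. No treatment is named and no spike-in is given, so a gain or loss shared by the whole genome is scaled away. No IgG or input library is among the 6. A high count of the mark therefore cannot be told apart from reads of many copies on few assembled sites. At Prr14 itself the table has 1 region, chr7:127475331-127476074, with 10, 18 and 10 counts in the wild types and 14, 56 and 54 in the knockouts, which does not check the deletion. Library totals ran from 4324444 to 4756133 counts.

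H3K9me3 is the mark of constitutive heterochromatin and is bound by the HP1 proteins. In mouse cells its densest domains are the pericentromeric satellite arrays, tandem repeats that the genome assembly holds only in small pieces, so that reads from many copies pile up on few assembled sites. Mouse autosomes are telocentric, which puts the first assembled bases of each chromosome next to the centromere. The mark also covers clusters of zinc finger, olfactory and protocadherin genes. Prr14 links HP1-bound heterochromatin to the nuclear lamina.

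Stretches of reference sequence are printed for a few members, picked by hand. They are 300-base windows around RefSeq start sites (GRCm38.p6, 250 bases before and 50 after the start, 5′ to 3′) that overlap members. Capitals mark the longest stretch of at least 6 bases that occurs at least 6 times without overlap inside the window. Gm40237 is a gene model on the plus strand at chr4:118547156-118547455, Gm38687 lies on the minus strand at chr1:132971639-132971938, and Gm33862 lies on the plus strand at chr11:3136826-3137125.
Gm40237: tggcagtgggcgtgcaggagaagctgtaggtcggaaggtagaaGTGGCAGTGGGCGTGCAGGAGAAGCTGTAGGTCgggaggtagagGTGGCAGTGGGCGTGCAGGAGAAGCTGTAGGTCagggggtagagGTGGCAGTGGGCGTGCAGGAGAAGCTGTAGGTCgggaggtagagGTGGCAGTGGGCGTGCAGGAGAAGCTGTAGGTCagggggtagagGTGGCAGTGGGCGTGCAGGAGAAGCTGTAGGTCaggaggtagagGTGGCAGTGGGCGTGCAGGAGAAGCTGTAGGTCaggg
Gm38687: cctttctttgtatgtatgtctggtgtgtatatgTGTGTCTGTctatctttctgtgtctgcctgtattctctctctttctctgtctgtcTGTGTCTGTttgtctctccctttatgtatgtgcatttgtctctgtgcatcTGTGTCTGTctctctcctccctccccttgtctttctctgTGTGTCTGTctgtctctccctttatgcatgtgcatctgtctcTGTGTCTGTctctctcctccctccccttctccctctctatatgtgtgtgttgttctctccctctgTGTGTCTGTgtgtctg
Gm33862: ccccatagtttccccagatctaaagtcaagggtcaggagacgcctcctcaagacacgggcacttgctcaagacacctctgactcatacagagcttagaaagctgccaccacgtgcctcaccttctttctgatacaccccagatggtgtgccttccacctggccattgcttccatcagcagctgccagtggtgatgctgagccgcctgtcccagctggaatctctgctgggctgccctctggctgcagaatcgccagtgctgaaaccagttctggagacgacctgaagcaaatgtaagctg
The Gm40237 window shares 241 bases with the member of rank 19, which the authors assign to Tmem125. It holds 6 exact copies of a 33-base unit, spaced 44 bases apart, and shifted by 88 bases it matches itself at 97.6% of positions. Of the 32851 windows in the table, this window alone (0.00304%) reaches that identity at a shift between 10 and 150 bases. The Gm38687 window, inside the member of rank 448 in Mdm4, is a pyrimidine-rich stretch in which a 9-base unit recurs 6 times at uneven spacing, with a best identity of 58.8% that 0.195% of windows reach. The Gm33862 window lies in the member of rank 65, one of a cluster assigned to Sfi1 on chromosome 11, and has no such unit. Its best identity was 34.3%, near the median of 34.6% over all windows. In all, 19 windows overlapped 17 of the members, and 1 of them passed 70% identity (0.0974% of all windows do). The windows not printed had best identities from 32.2% (4931408C20Rik) to 46.6% (Taf7l2), below those of the Gm40237 and Gm38687 windows. The sequence of the other 483 members was not analysed here. The name satellite-like is thus not checked by sequence for most of them, and they are called below by their rule, the strongest regions.

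Counts were concentrated in very few places. The members cover 684 kb, 0.817% of the 83.7 Mb covered by autosomal regions, and hold 12.4% of autosomal counts. Their count sums ran from 895 to 576638 with a median of 1410.5, against a median of 91 over autosomal regions. A single member, near Tcp10c on chromosome 17, took 17.2% of the counts of all members. The first 4 took 42.7%, the first 20 took 63.0% and the first 100 took 82.2%.

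**Figure D1:**
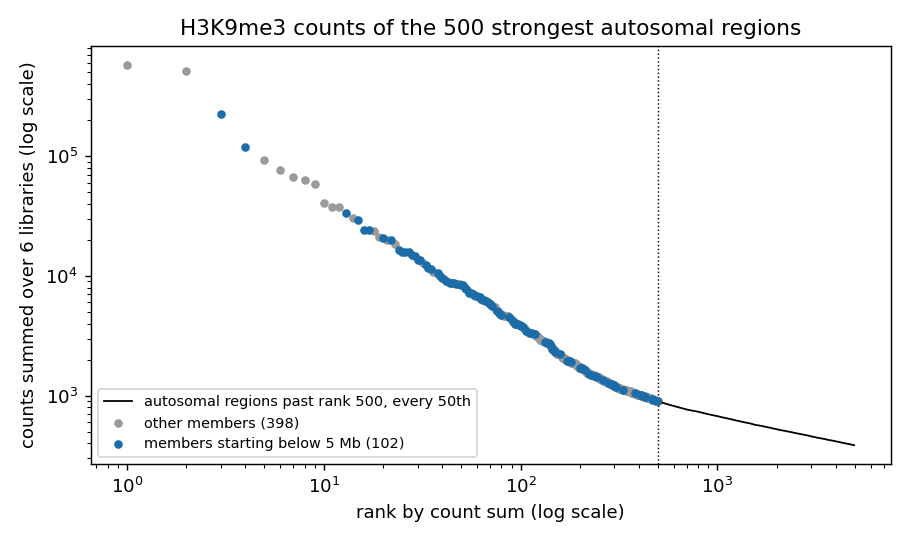
Counts summed over the 6 libraries (log scale) against rank (log scale) for the 500 members, with members that start within 5 Mb of the first base of their chromosome in blue and the other 398 in grey. The black line continues the autosomal regions past the cut at rank 500 (dotted), where no step separates members from the rest.

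The strongest member was chr17:13550667-13553161, assigned to Tcp10c though 197342 bases from its start site, and inside the RefSeq lncRNA 2700054A10Rik. It held 96560, 91873 and 100334 counts in the wild types and 109048, 89256 and 89567 in the knockouts, always given in the order of replicates named above. Knockout replicate 4 was the highest library and the genotypes overlapped. The next, chr2:98666548-98667321 at the gene model Gm10800, had the most counts per kb, 661982. It held 86298, 90581 and 87465 counts in wild type and 91787, 84461 and 71120 in knockout, with knockout replicate 7 the lowest. Gm10718 (chr9:3023418-3024659, count sum 224534) and Gm10722 (chr9:3000117-3002305, 119258) lie at the centromeric end of chromosome 9, and Gm10801 (chr2:98662236-98662940, 58763) lies beside Gm10800.

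The fifth was of another kind. It lies at chr17:39843115-39846401, is assigned to Esp38, a pheromone peptide gene over 100 kb away, and overlaps the RefSeq ribosomal RNA pseudogene Rn18s-rs5. Its counts were 14945, 16214 and 15759 in wild type and 14940, 17827 and 12268 in knockout, with the highest and the lowest library both knockouts. Further down came an intron of Gm525 (chr11:89081685-89082050, count sum 76912), an intron of Smo, the Hedgehog signal transducer (chr6:29747876-29748949, 66439), a region without a symbol (chr14:19415722-19419402, 63646), Zfp825 (chr13:74528466-74530666, 40430), Tcp10c again (chr17:13305953-13306264, 37689) and Rpusd4 (chr9:35305219-35305591, 37639). The regions at Gm525 and Tcp10c are only 365 and 311 bp wide, with 210718 and 121186 counts per kb.

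No gap in counts set the members apart at the other end of the ranking. The last 4 members were Hjurp (897 counts), Arpp21 (896), Mroh2a (895) and Eif1ad18 (895). Just outside lay Pcdhb8 and Msr1, both also at 895, then Ptpn20 and Filip1l at 894.

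Members were wider than other regions, with a median of 1195 bp (quartiles 668.5 and 1910.25) against 318 bp over autosomal regions. Both width and density enter a count sum: the median density of members was 1484 counts per kb, against 280. All 51 autosomal regions above 10000 counts per kb were members. The rule fixed this in advance, because no autosomal region is narrower than 140 bp and the cut lay at 895 counts. The widest were an exon of Flg2, the filaggrin-2 gene of the epidermis (5661 bp), a region at the start of Crlf2 (4858 bp), and intergenic regions assigned to Lhfpl3 (4787), Apba2 (4485) and Gm21863 (4366). The narrowest were assigned to Oasl1 (161 bp), Rec114 (164), Gm11168 (165), Efhb (171) and Mup7 (171). The narrow Gm11168 member on chromosome 9 held 5101 counts, and the wide Flg2 exon 5096, so the same sum came from very different densities.

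By the authors' annotation, 61.0% of members were intergenic (67.7% of autosomal regions), 18.4% intronic (22.9%), 8.0% within 1 kb of a start site (3.82%), 4.6% exonic (2.09%) and 2.2% in a 3′ UTR (0.918%). A RefSeq gene overlapped 240 members, a protein-coding one in 185, and 260 overlapped none. The authors' symbol was that of an overlapping RefSeq gene for 149 members, and 149 lay more than 100 kb from the start site of the gene they carry, so a symbol is often only an address. There were 342 symbols, and 4 members had none.

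The symbols with the most members were Sfi1, which encodes a centrin-binding spindle pole protein (27 members of its 32 autosomal regions), Scaf8 (12 of 18), Hnf4g (11 of 237), Vmn1r2 (11 of 16), Mroh2a (10 of 19) and the retinal channel gene Trpm1 (7 of 25). Of a list of symbols often placed on satellite arrays or copied near centromeres, with Sfi1 among them, 46 members carried one (9.2%, against 0.206% of autosomal regions), 27 of them Sfi1 and 19 gene models. Zinc finger symbols marked 28 members (5.6% against 1.95%), 16 of them on chromosome 4, and olfactory or vomeronasal receptor symbols 26 (5.2% against 3.20%). Chromosome 4 held the most members (54, or 0.425% of its regions), followed by chromosomes 1 (46, 0.275%), 11 (43, 0.510%) and 9 (41, 0.423%). The fewest, 10 each, were on chromosomes 14 (0.0987%) and 19 (0.249%). Over all autosomal regions the share was 0.252%, so chromosomes 1 and 19 lay near it, and by share chromosome 11 came first.

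Members were frequent at the centromeric ends. Within 5 Mb of the first base lay 102 members (20.4%, against 1.46% of autosomal regions), on 16 chromosomes, and 91 of them started below 3.3 Mb. Chromosome 11 had 29 of these, chromosome 9 had 18, chromosomes 4 and 17 had 12 each and chromosome 3 had 11. They held 29.3% of member counts and were dense, with a median of 5755 counts per kb against 1096 for the other 398 members. Most members therefore lay away from the centromeric ends. The opposite ends also held more than their share: 51 members (10.2%, against 4.14% of autosomal regions) lay within 5 Mb of the chromosome's last region.

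When all regions of the table were joined across gaps of 10 kb or less, the members fell into 351 loci. Of these, 311 held a single member, 19 held 2 and 21 held 3 or more, 151 members in all. The largest was the Sfi1 cluster at chr11:3100408-3199765 with 29 members. Next came chr1:88200224-88326312 with 18, spanning Ugt1a1, the bilirubin-conjugating enzyme gene, Mroh2a, Hjurp, the gene of the centromeric histone chaperone, and Trpm8. The start of chromosome 9 (chr9:3000117-3090078) held 16, the Scaf8 locus (chr17:3006429-3048809) 11, the Hnf4g locus (chr3:3000262-3057560) 10 and the Vmn1r2 locus (chr4:3050003-3069557) 8. The sources used here do not say how reads that match several copies were placed, so if members of one locus are copies of each other, their counts cannot be told apart. Whether they are was not tested.

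Few of these regions differed between knockout and wild type beyond the spread between libraries. The median log2 change of the members, knockout minus wild type, was -0.01 (quartiles -0.10 and 0.07), beside 0.00 (quartiles -0.28 and 0.29) over the 153789 regions tested. Changes were within 0.2 on the log2 scale for 426 members (85.2%), against 36.6% of tested regions, and the median standard error was 0.16 against 0.46. Both follow the count level that selected the members: of members of rank 301 to 500, 79.5% lay within 0.2, and of the regions of rank 501 to 700 outside the set, 78.5%. All 500 members passed the filter on low counts. By edgeR with an adjusted p under 0.05, 3 members (0.6%) were lower in the knockout and 0 were higher, where 0.00975% of tested regions were called lower and 0.00325% higher. These shares were not compared at equal power, as members had smaller standard errors. Among the 200 and among the 1000 highest regions, 3 were likewise called lower. At an unadjusted p under 0.05, 9 members were lower and 8 higher (3.4% together), against 1.81% lower and 2.02% higher over tested regions. All 3 knockout values lay above all wild-type values in 20 members (4.0%), and below them in 17 (3.4%), beside 4.68% and 4.93% of tested regions. DESeq2 also called 3 lower and 0 higher.

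The largest loss was at chr6:4923777-4924243, in an intron of Ppp1r9a, the gene of neurabin, an actin-binding regulator of protein phosphatase 1. It held 711, 485 and 578 counts in wild type and 234, 229 and 219 in knockout. The knockouts lay close together, far below the lowest wild-type library. H3K9me3 fell by 1.30 on the log2 scale (edgeR adjusted p = 1.10e-13, SE 0.15). The second, chr4:153153035-153153554, is assigned to Ajap1, which encodes an adherens junction protein, but lies 328884 bases from its start site, inside the RefSeq gene Gm31055. Its counts were 892, 691 and 625 in wild type and 303, 346 and 304 in knockout, again without overlap. The log2 change was -1.13 (edgeR adjusted p = 5.72e-11, SE 0.14). The third, chr3:149052475-149052935, is intergenic and assigned to Adgrl2, the gene of the adhesion receptor latrophilin-2. It fell from 737, 612 and 573 counts to 312, 310 and 301, a log2 change of -0.98 (edgeR adjusted p = 2.26e-07, SE 0.15).

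These 3 members ranked 145, 121 and 131 by count sum and were narrow for the set, 466, 519 and 460 bp wide. The authors' deposited table also puts these 3 members, of 13 regions in all, under an adjusted p of 0.05, with log2 fold changes of -1.35 for Ppp1r9a, -1.19 for Ajap1 and -1.03 for Adgrl2. Summed over whole loci, 2 of the 351 member loci were lower and 0 higher by edgeR (background 0.0156% of 63928 tested loci lower and 0.00626% higher): Ppp1r9a at -1.21 (edgeR adjusted p = 1.18e-16) and Adgrl2 at -0.85 (5.98e-08). The Ajap1 locus, a sum over 16 regions, did not pass (log2 change -0.36, edgeR adjusted p = 0.999). Its other member, at chr4:153157648-153158339, had 219, 208 and 201 counts in wild type and 239, 186 and 168 in knockout. DESeq2 did not call this locus either, while a further tool, limma-voom, called it lower (limma-voom adjusted p = 0.0216). At an unadjusted p under 0.05, 7 member loci were lower and 4 higher, where 1.86% of tested loci were lower and 2.16% higher.

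**Figure D2:**
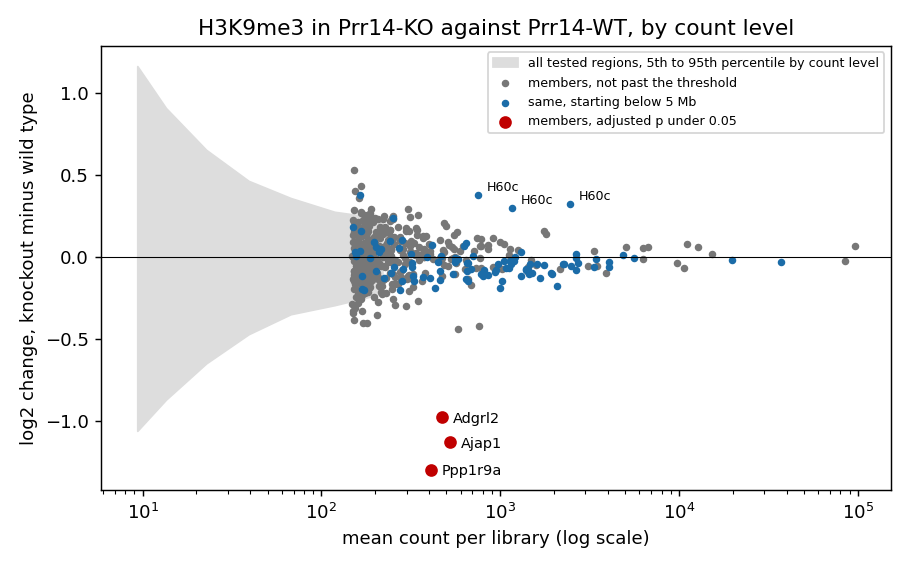
Log2 change, knockout minus wild type, against mean count per library (log scale) for the 500 members, with the 5th to 95th percentile of all tested regions in grey where a count level holds at least 100 of them. The 3 members past the threshold (red) lie near -1 or below, while 426 of the 500 lie within 0.2 of zero and the 3 H60c members lie near 0.3.

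No member passed in the upward direction. At the start of chromosome 10 the 3 members of one locus, assigned to H60c, a ligand gene of the NKG2D receptor, all had every knockout above every wild type in CPM, which scales counts to the TMM-adjusted library size. The strongest of them, chr10:3111448-3115269, held 2019, 2250 and 2449 counts in wild type and 2678, 2529 and 2766 in knockout. It stood 0.32 higher on the log2 scale, with an SE of 0.12 and an edgeR adjusted p of 0.998, with 0.38 at chr10:3109874-3110444 and 0.30 at chr10:3116100-3117037. For the whole locus CPM went from 867 ± 76.6 to 1082 ± 62.0 (SD, n = 3), or 0.32 in log2 (edgeR adjusted p = 0.999). Limma-voom, which weights each count by its precision and shares the spread differently, called the strongest H60c member higher (limma-voom adjusted p = 0.000273), and with it the rank 1 Tcp10c member, at a log2 change of only 0.07 (limma-voom adjusted p = 6.48e-12).

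The other members with the smallest p values upward were Cct8, a chaperonin subunit gene (log2 change 0.53), and Cfap53 (0.43). Downward, after the 3 that passed, the smallest were 2010315B03Rik (-0.44) and Fgf14 (-0.42). The Fgf14 member, chr14:124801548-124801991, had 988, 867 and 829 counts in wild type and 711, 607 and 585 in knockout, without overlap. Its edgeR adjusted p was 0.998, and limma-voom called it lower (limma-voom adjusted p = 0.0188). At the 18-member locus of chromosome 1 all 3 knockouts were below all wild types, at 1155 ± 49.6 CPM against 1269 ± 35.7 (SD, n = 3), or -0.14 in log2 (edgeR adjusted p = 0.999). Summed over its 18 members alone the log2 difference was -0.16. Single members picked from these 18 had -0.41 and -0.40 at Ugt1a1, -0.39 at Mroh2a, a symbol with 10 members, and 0.22 at Hjurp.

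**Figure D3:**
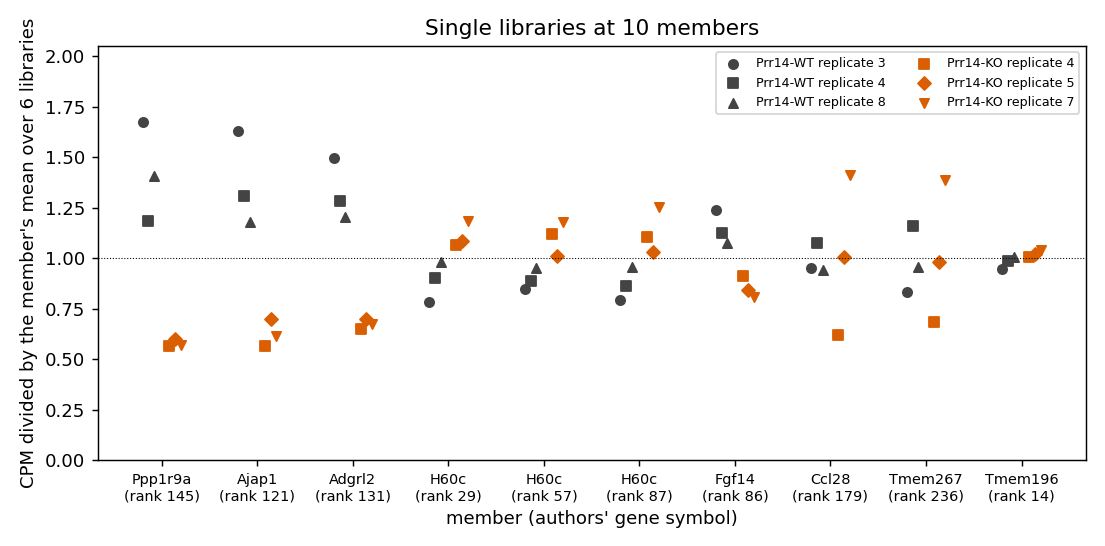
CPM in each library divided by the member's mean over the 6 libraries, for 10 members; wild-type libraries in grey, knockout libraries in orange, with 1 symbol shape per library. The knockouts sit apart below at Ppp1r9a, Ajap1, Adgrl2 and Fgf14 and above at the 3 H60c members, while at Ccl28 and Tmem267 the knockout libraries spread on both sides of the wild types and at Tmem196 all 6 nearly coincide.

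Taking the members together, their share of each library's counts was 11.9%, 12.6% and 12.2% in wild type and 13.0%, 12.4% and 11.2% in knockout. Knockouts gave both the highest and the lowest share. The means were 12.2% ± 0.360 and 12.2% ± 0.911 (SD, n = 3), a difference of -0.0603 percentage points (two-sided exact permutation p = 1.00, the smallest possible being 0.10). The difference turned positive without wild-type replicate 4 (0.125 points) or without knockout replicate 7 (0.438 points).

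Summed CPM was also compared for 32 groups of members by place, annotation class and chromosome. Of these, 30 overlapped between genotypes, and no adjusted exact permutation p was under 1.00. Members at the centromeric ends differed by -0.03 on the log2 scale (exact permutation p = 0.80), and the other members by 0.01 (exact permutation p = 0.80). The 28 zinc finger members had a log2 difference of 0.06 (exact permutation p = 0.70). All 3 of these differences changed sign when single libraries were left out, running from -0.10 to 0.03 at the centromeric ends, from -0.03 to 0.07 for the other members and from -0.02 to 0.14 for the zinc finger members. The members at the centromeric ends include Ppp1r9a, the largest loss. Without it their summed log2 difference was again -0.03 (exact permutation p = 0.80). Singly, 74 of the 102 members at the centromeric ends were below 0. Of the 28 zinc finger members, 19 were above 0, where 50.1% of tested regions were above 0. Members share loci and the same 6 libraries, so they are not replicates and these counts only describe. The 2 groups without overlap were chromosome 10, at 0.17, and chromosome 1, at -0.05 (both exact permutation p = 0.10). Without the 3 H60c members chromosome 10 stood at -0.02, and without the 18-member locus chromosome 1 stood at 0.00, each then overlapping, in a split chosen after the values were seen.

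Single libraries stood high or low across many members at once. Knockout replicate 7 was the lowest library in 238 members (47.6%, against 18.2% of tested regions), and knockout replicate 4 was the highest in 184 (36.8%, against 17.8%). Wild-type replicate 4 was the highest in 142 (28.4%, against 17.0%). At the centromeric ends the median member stood 0.19 below its mean over libraries in knockout replicate 7 and 0.14 above it in wild-type replicate 4, on the log2 scale. Knockout replicate 7 also had the largest share of mitochondrial counts, 0.612%, against 0.146% to 0.366% in the other libraries. Over the 6 libraries, the mitochondrial and member shares had Pearson r = -0.82 (exact permutation p = 0.0472, 0.0944 adjusted over the 2 coefficients) and Spearman rho = -0.66 (exact permutation p = 0.175). Without wild-type replicate 8 and knockout replicate 7, r was -0.31 (exact permutation p = 0.75), so the relation rests on those libraries. Within a genotype 3 libraries are too few for it. Its part in the members' values was not tested beyond a fit that adds this share as a covariate, in which 3 members were again lower and 0 higher.

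**Figure D4:**
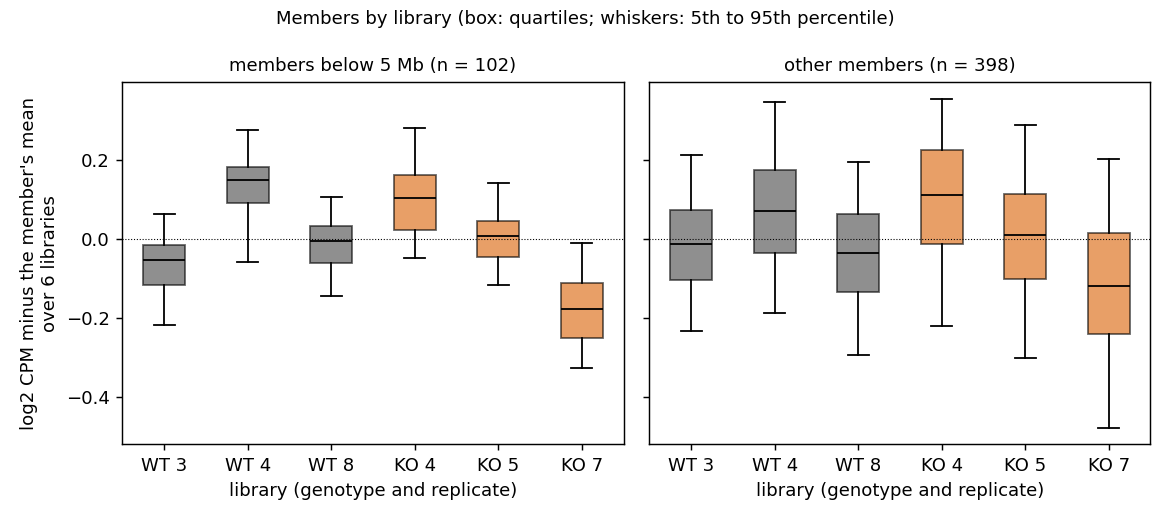
Log2 CPM of each member minus its mean over the 6 libraries, by library (boxes are quartiles with the median, whiskers the 5th and 95th percentiles), for the 102 members within 5 Mb of a chromosome's first base and for the other 398; wild type in grey, knockout in orange. Wild-type replicate 4 and knockout replicate 4 lie high and knockout replicate 7 lies low in both panels.

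Relative spread falls as counts rise, so the spread of the members follows in part from the count level that selected them. The SD over the mean of CPM within genotypes had a median of 12.1% (quartiles 8.95% and 15.4%), against 33.8% over tested regions. The variance was 4.49 times that of counting error at the median, against 2.32 times over tested regions. Near one count level the gap was small: members of rank 301 to 500 had a median spread of 13.4% and regions of rank 501 to 700, just outside the set, 14.4%. The median variance of these sets was 3.10 and 2.86 times that of counting error, so the gap in this ratio was small there too. The most even were Tmem196 (chr12:120028659-120028973, 2.48%), Gm14496 (2.59%), Gm21060 (3.15%), Actr3b (3.60%) and Dcbld2 (3.62%). The Tmem196 member held 5005, 5031 and 5129 counts in wild type and 5172, 4852 and 4980 in knockout.

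The least even member was assigned to Ccl28, a chemokine gene (chr13:119616390-119617571, 28.2%), with 319, 349 and 305 counts in wild type and 203, 304 and 429 in knockout. The Tmem267 member in the same locus (chr13:119613142-119613840, 27.2%) had 216, 290 and 239 in wild type and 173, 229 and 325 in knockout. In both, knockout replicate 4 was the lowest library and knockout replicate 7 the highest, whereas replicate 4 lay above replicate 7 in 414 of the 500 members (82.8%). Next were D10Wsu102e (27.1%), the protocadherin member Pcdhb21 (26.8%) and Gm10715 (25.9%). Members at the centromeric ends had a median spread of 10.3%, with a median count sum of 4048, and the other members 12.6%, with a median count sum of 1255. They were not compared at equal counts.

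**Figure D5:**
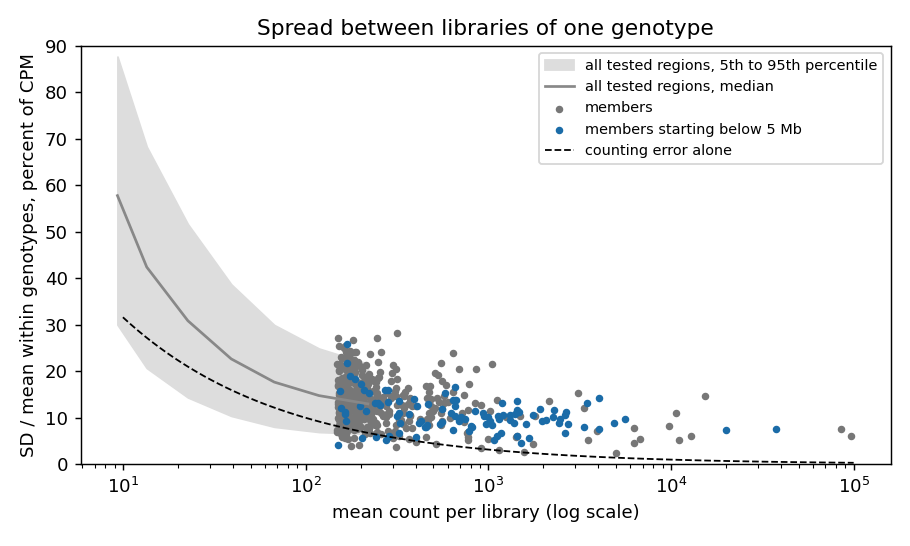
SD over mean of CPM within genotypes, in percent, against mean count per library (log scale), for the 500 members; the grey line and band are the median and the 5th to 95th percentile of all tested regions where a count level holds at least 100 of them, and the dashed line is counting error alone. Most members lie above the dashed line, from 2.48% at Tmem196 to 28.2% at Ccl28.

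An imprinted locus and a rearranging one also held members, and were picked out after their values were seen. The host transcript Snhg14 of the imprinted Snurf region on chromosome 7 overlapped 3 members, and the immunoglobulin heavy chain locus Igh on chromosome 12 overlapped another 3. They ranked between 117 and 397, their log2 changes ran from -0.21 to 0.03, and 0 of the 6 passed the threshold by edgeR (edgeR adjusted p from 0.998 to 0.999).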

How the data were processed

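The authors deposited 1 table of regions. Its gene annotation, p-value and log2 fold change columns were used as deposited, and 3 of those rows are printed. Raw counts stand in 1 column per library, per the file headers, as whole numbers. A normalised signal deposited beside them gave 1 factor per library (0.957 to 1.09) and served no test. The deposited score per region was not used. Tools named in the submitters' processing notes are BWA, Trimmomatic, bedtools, deepTools, MACS2 and DESeq2 1.6.3, on GRCm38. The sources used here do not say whether regions were called on pooled libraries, or whether positions start at 0 or 1. Positions are printed as in the table, and a width is end minus start.

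Library totals ran from 4324444 to 4756133 counts. R 4.3.3 with edgeR 4.0.16 tested the counts of the whole table after filterByExpr (minimum count 10, minimum total 15), which left 153789 regions (75.9%). It used TMM scaling and a robust quasi-likelihood fit of genotype. Benjamini-Hochberg adjustment ran over all regions or loci tested, with a threshold of 0.05. The TMM-adjusted library size, taken over the regions left by the filter, was 0.912 to 0.926 of a library's total counts. Loci joined regions across gaps of 10 kb or less. Shares and sums were compared with an exact permutation test, two-sided, that enumerates the 20 arrangements of the libraries. The script was tested on simulated data. Alternatives used DESeq2 1.42.0, limma-voom (limma 3.58.1) and the settings named in the closing section.

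The members, lists and tests were chosen with earlier results of these data known. Named are the 12 highest members (at most 2 per symbol), members past the threshold and the 5 smallest p values per direction, 4 on each side of the cut, the 5 widest, narrowest, most and least even, and the 6 symbols and 6 loci with the most members. The satellite list held Sfi1 and 14 gene models, of which Gm38666 lies in the protocadherin beta cluster and has 0 members. Of the gene models (Gm with digits or Rik) 64 were members (12.8%, against 6.27% of autosomal regions). Some names in upper ranks and the loci around H60c, Ccl28, Snhg14 and Igh were added after their values were seen. Sequences come from the RefSeq table of GRCm38.p6.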

Additional observations from a re-analysis of the deposited data

How the results depend on the processing

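The counts called lower at single members held in 18 alternatives, at 3 or 4: RLE size factors, library totals, TMM without the members, DESeq2, limma-voom, no filter, the mitochondrial share as a covariate, an adjusted p of 0.10, other numbers of regions (200 and 1000), other rankings, and each library left out. The count called higher, 0, became 2 under limma-voom and 2 when regions of 200 bp or more were ranked by counts per kb, which keeps 275 of the 500 members and brings in regions of Esr1 and Syne1 on chromosome 10. Loci called higher went from 0 to 1 under limma-voom and 1 when joined at 100 kb, and loci called lower from 2 to 5 and to 0. Joined at 1 kb, 3 loci were called lower and 0 higher. The cause was not tested, beyond that joining at 100 kb adds more regions to each sum.

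Leaving out each library in turn, the median log2 change of members ran from -0.0811 to 0.0510, and the share difference from -0.457 to 0.438 percentage points, positive without wild-type replicate 4 (0.125) or knockout replicate 7 (0.438). Log2 differences of summed CPM ran from -0.0952 to 0.0347 for the centromeric ends, -0.0343 to 0.0719 for other members, -0.0869 to 0.0368 for loci of 3 or more members, -0.0266 to 0.0759 for lone members and -0.0241 to 0.143 for zinc finger members. These sums and shares thus give no stable direction. No paired analysis was made because the labels name no pairs. The groups share 1 replicate number (4), which the labels do not call a pair. The median standard error of single members was 0.16, and a change of 0.32 at the strongest H60c member did not pass (edgeR adjusted p = 0.998). Smaller changes at single members may thus go uncalled. With 3 libraries per genotype the exact test cannot go below 0.10.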
